A study of Cyanidioschyzon merolae with 75 samples.

Results

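Among the 4576 genes on a microarray of the red alga Cyanidioschyzon merolae, 59 followed a daily curve whose fitted peak lay from 9 to under 13 h, and these genes are described here. They were chosen from the measured values: for each gene a mean plus a 24 h cosine and sine was fitted by least squares to 25 values taken every 2 h. Genes were kept where the fitted peak-to-trough, the distance between the top and the bottom of the curve, was at least 1 on the log2 scale. The curve also had to account for at least 0.4 of the variance (R2), and 8 genes were left out by name, of which 1, CMS004C, met the numerical criteria. Peak-to-trough, R2 and fitted peak of the 59 genes are therefore given as descriptions and not tested.

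Cyanidioschyzon merolae is a unicellular red alga of acid hot springs with a single nucleus, mitochondrion and plastid per cell. Under alternating light and dark its cells divide in step, and the plastid and mitochondrion divide before the nucleus and the cell. Transcripts that rise and fall once a day in such a culture can follow the cell cycle, the light regime, or both, and these cannot be told apart in this design. The reference table of RefSeq genes (assembly ASM9120v1) matched 59 of 59 tags, but in it 0 symbols differed from the locus tag, so genes are named here by tag and no function is assigned.

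The labels name strain 10D throughout and no mutant or drug treatment, and the culture had been set in step by light and dark cycles. The arrays covered the second cycle, 26 to 48 h, and the first cycle, 2 to 24 h, with 12 times each, plus a last sample at 50 h. On each array the dye Cy3 marked RNA of 1 time and Cy5 marked the mixture of samples, so a value is the ratio of a gene at that time to the same gene in the mixture. Values are log2(Cy3/Cy5) minus the median of the array, called the centred log2 ratio below. A value of 1 is a ratio 1 log2 unit above that of the median probe. Each time was deposited in 3 series, but intensities of series 3 equalled the mean of series 1 and 2 at all 24 times with intensities in the 3 series, to within 2.22e-14%. Each time was thus counted as 1 sample, and no value was treated as having a replicate culture. Whether series 1 and 2 came from separate cultures could not be settled from the sources used here. Between series 1 and 2 the centred log2 ratios of the 59 genes had an SD over times of 0.0451 to 0.174, with a median of 0.0768, and the median over all genes was 0.0769. This spread was taken to cover the reading of the arrays only. Median Cy5 intensity ran from 552 to 14420 over the arrays. No light or dark clock hours are given in the sources used here.

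The fitted peak-to-trough ran from 1.01 in CMN019C to 4.28 in CMS101C, with a median of 1.33, on the log2 scale. The standard error of the fit ran from 0.154 to 0.584, with a median of 0.260. A peak-to-trough of 2 or more was found in 8 of the 59 genes. The fitted peak ran from 9.15 h in CMQ241C to 12.99 h in CMI203C, with a median of 11.6 h and a median standard error of 0.736 h. In 17 genes it lay from 9 to under 11 h and in 42 from 11 to under 13 h. R2 ran from 0.413 in CMI192C to 0.793 in CMS101C, with a median of 0.553. The same size and R2 criteria were met at any peak time by 239 genes, of which 78 peaked in the 4.5 h before 9 h and 37 in the 2.5 h from 13 h on.

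The limits of the set are not gaps in the data. CMN019C and CML242C were just inside the size limit, both with a peak-to-trough of 1.009, and CMC068C at 0.998 and CMK245C at 0.982 were just outside it. For R2, CMI192C at 0.413 and CMN019C at 0.415 were inside, while CMS183C at 0.387 and CMJ261C at 0.384 were outside. CMQ241C at 9.15 h and CMQ224C at 9.31 h were the earliest peaks kept, with CMG201C at 8.83 h and CMJ108C at 8.55 h before them. CMI203C at 12.99 h and CMN066C at 12.93 h were the latest, followed by CMF101C at 13 h and CMJ156C at 13.06 h. For size and peak time these steps are smaller than the standard errors of the fits.

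**Figure D1:**
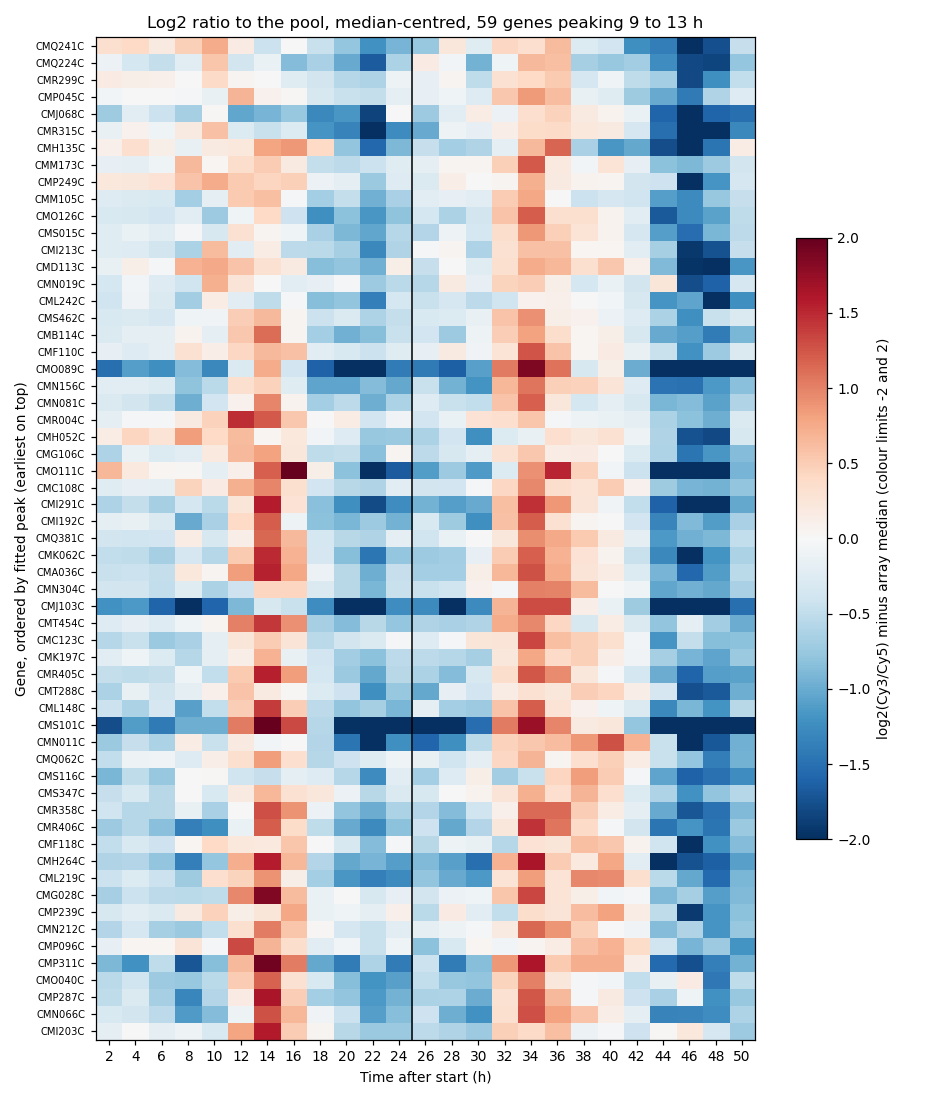
Centred log2 ratio of the 59 genes (one line of cells per gene, earliest fitted peak on top) against time after start in hours; red is above and blue below the array median, colours stop at -2 and 2, and the vertical line divides the first from the second cycle. Red cells gather at 12 to 16 h and 32 to 38 h, and the darkest blue cells at 44 to 48 h.

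As a group the genes were high for a few hours once per cycle and low late in each cycle. At 2, 4, 6, 8 and 10 h the median centred log2 ratio of the 59 genes was -0.36, -0.27, -0.37, -0.20 and -0.18. At 12, 14 and 16 h it was 0.32, 0.70 and 0.29, and at 18, 20, 22 and 24 h it was -0.44, -0.70, -0.93 and -0.61. The second cycle began with medians of -0.47, -0.38 and -0.35 at 26, 28 and 30 h. They were 0.34, 0.91, 0.48, 0.21 and 0.07 at 32, 34, 36, 38 and 40 h, and then -0.27, -0.99, -1.46, -1.21 and -0.75 at 42, 44, 46, 48 and 50 h. The highest medians thus stood at 14 and 34 h, 20 h apart rather than 24 h. At 34 h 57 of the 59 genes were above the array median, and at 14 h 50 were. At 48 h and at 22 h 0 of them were.

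The fitted peak hides this spacing, because 1 curve of 24 h was laid through both cycles. In the second cycle the highest value of a gene fell at 34 h in 42 genes, at 36 h in 10, at 38 h in 4 and at 40 h in 3. In the first cycle it fell at 14 h in 36 genes, at 10 h in 11, at 12 h in 6, at 16 h in 4 and at 8 h in 2. The pair of maxima at 14 and 34 h was shared by 33 genes, and in 41 genes the maxima were less than 24 h apart, in 7 they were 24 h apart and in 11 further apart. In those 33 genes the fitted peak thus lies between a top at hour 10 of the second cycle and one at hour 14 of the first. With the period set to 22 h the median R2 of the genes was 0.579, against 0.553 at 24 h. Periods of 20, 23, 25 and 28 h gave 0.448, 0.575, 0.550 and 0.391. The whole-hour period of highest R2 was under 24 h in 32 genes, 24 h in 11 and over 24 h in 16.

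The most common minima, at 46 and 22 h, were 24 h apart. In the second cycle the lowest value fell at 46 h in 31 genes, at 48 h in 16, at 44 h in 11 and at 30 h in 1. In the first cycle it fell at 22 h in 42 genes and at 8 h in 8, and 9 genes had it at other times. The steepest step down between neighbouring times ended at 44 h in 27 genes and at 46 h in 15, and in the first cycle at 18 h in 33 and at 16 h in 11. The steepest step up ended at 32 h in 28 genes and at 34 h in 16, and in the first cycle at 12 h in 21, at 24 h in 14 and at 14 h in 12. In the second cycle a median of 6 of 12 times lay above the middle of a gene's range, and in the first cycle 3 of 12. The lowest values were deeper in the second cycle (median -1.56 against -0.99 in the first), which lowers that middle. These counts thus do not give the length of the high phase.

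The ratio has a numerator and a denominator, and both moved. For each dye alone, log2 intensity minus the array median of that dye was fitted with the same 24 h curve. In Cy3, the RNA of the sampling time, the median peak-to-trough of the 59 genes was 1.68, against 0.454 over all genes, and 53 of the 59 reached 1. In Cy5, the mixture, the median peak-to-trough was 0.769, against 0.442 over all genes, and 16 of the 59 reached 1. The peak-to-trough was larger in Cy3 than in Cy5 in 57 of the 59 genes. The median fitted peak was 13.15 h in Cy3 and 16.37 h in Cy5. With Cy3 alone the highest value fell at 34 h in 37 genes and at 14 h in 43, so the tops 20 h apart are present in the sample dye without the division by the mixture. Cy5 shared them in part: its highest value fell at 34 h in 14 genes and at 44 h in 23 in the second cycle, and at 14 h in 31 in the first.

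At the lows of the ratio Cy5 stood above Cy3, and at its tops below it. Over the 59 genes the median Cy3 value above the array median was 2.58, 0.29, 2.84, 0.84 and 0.32 at 14, 22, 34, 44 and 46 h. The median Cy5 value at these times was 1.81, 1.28, 1.81, 2.08 and 1.62. Cy5 holds the same kind of mixture on every array by its label, yet its median over these genes ranged from 0.52 at 2 h to 2.08 at 44 h. What part of the ratio's rhythm comes from Cy5 was not tested.

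**Figure D2:**
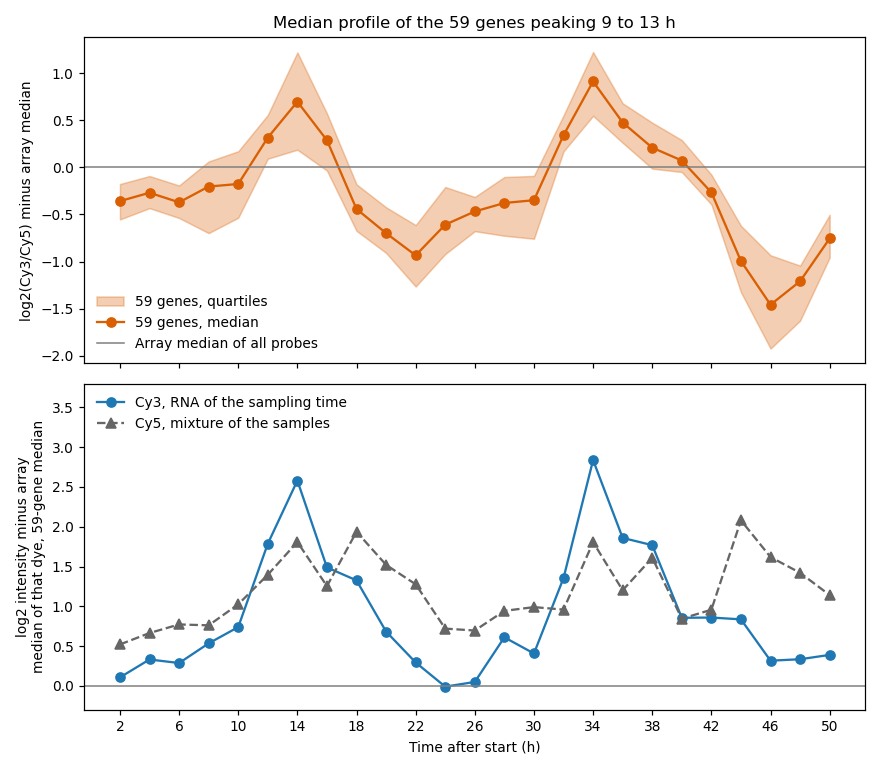
Upper panel, centred log2 ratio of the 59 genes (median and quartiles) against time after start in hours, with the array median at 0; lower panel, the median of the same genes in each dye, as log2 intensity minus the array median of that dye. The ratio tops at 14 h (0.70) and 34 h (0.91); Cy3 tops at the same times, and Cy5 is highest at 44 h (2.08).

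CMS101C had the largest swing of the set. Its centred log2 ratio was lowest at -4.08 at 46 h, had a median of -1.15 and was highest at 1.73 at 34 h in the second cycle, against -3.05 at 22 h, -1.05 and 2.13 at 14 h in the first cycle. The ranges overlap, with a deeper low in the second cycle, and the gene stood above the array median at 32 to 40 h and at 12 to 16 h. Its peak-to-trough was 4.28 ± 0.47 (standard error of the fit, 25 times). Raw Cy3 intensity was 449900 at 14 h with 115300 in Cy5, 186800 at 34 h with 26910 in Cy5, and 10850 at 46 h with 156600 in Cy5. The median Cy3 intensity of the array was 3223 at 14 h, 1614 at 34 h and 5376 at 46 h, so Cy3 of CMS101C stood above the array median at the low too, and Cy5 was the brighter dye of the spot there.

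CMO089C had a higher ratio at its second top. In the second cycle its centred log2 ratio was -3.19 at the lowest (48 h), -1.04 at the median and 1.87 at the highest (34 h), against -2.66 (22 h), -1.26 and 0.74 (14 h) in the first cycle. Raw Cy3 was 84400 at 14 h with 56820 in Cy5, and 29470 at 34 h with 3856 in Cy5, on arrays with a median Cy3 of 3223 at 14 h and 1614 at 34 h. Relative to the array median, Cy3 was thus higher at the first top, unlike the ratio. Its peak-to-trough was 3.03 ± 0.44 with a peak at 11.2 h.

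CMO111C had its tops later than most of the set, at 16 and 36 h. In centred log2 ratio it was -4.28 at the lowest (46 h), -0.57 at the median and 1.53 at the highest (36 h) in the second cycle, against -1.99 (22 h), 0.07 and 2.03 (16 h) in the first cycle. Its range over all times, 6.31, was the widest of the 59, while R2 was 0.494, so much of its movement lies off the cosine. At 46 h its raw intensity was 15000 in Cy3 and 248100 in Cy5, against 176800 in Cy3 and 16050 in Cy5 at 16 h.

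CMI291C lay closest to the middle of the set, with a correlation of 0.979 with the median of the 59 genes over 25 times. Its centred log2 ratio was -2.16 at the lowest (46 h), -0.71 at the median and 1.46 at the highest (34 h) in the second cycle, against -1.79 (22 h), -0.57 and 1.57 (14 h) in the first cycle. The 2 cycles had nearly equal tops, 4 h apart in the hour of the cycle. CMP311C reached 1.62 at 34 h and -1.76 at 46 h with a median of -0.15 in the second cycle, against 1.93 at 14 h and -1.72 at 8 h with a median of -0.87 in the first cycle. In this gene the lowest value of the first cycle came before the top and not after it.

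CMR315C belonged to the genes with an early first top. Its values were -2.82 at the lowest (46 h), -0.13 at the median and 0.38 at the highest (36 h) in the second cycle, against -2.01 (22 h), -0.28 and 0.58 (10 h) in the first cycle. Its highest values were thus closer to the array median than its lowest in both cycles. Its peak-to-trough was 2.20 ± 0.31, and 1.77 without 46 and 48 h.

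**Figure D3:**
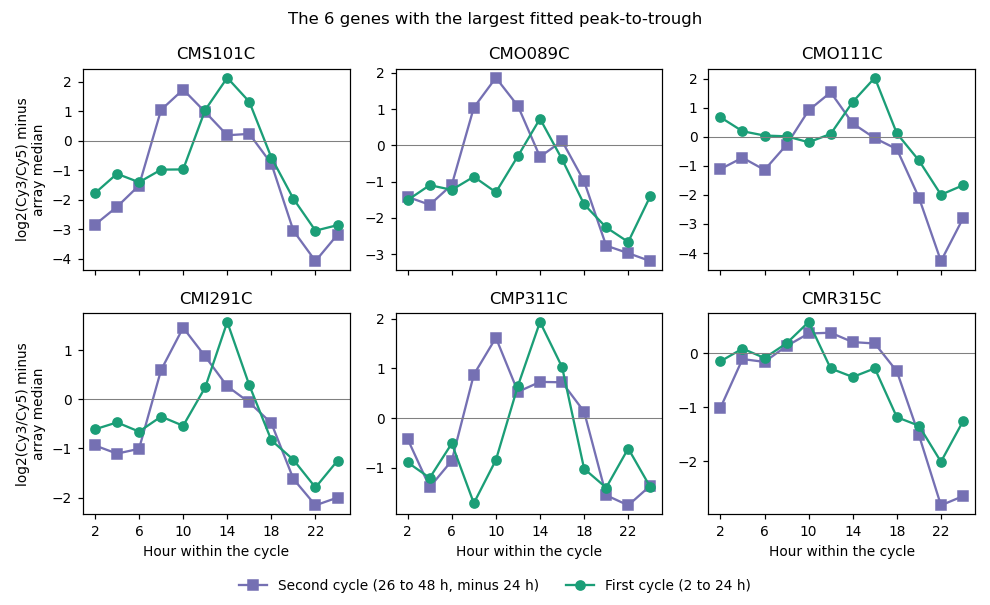
Centred log2 ratio of the 6 genes with the largest fitted peak-to-trough against hour within the cycle; squares are the second cycle (26 to 48 h, drawn 24 h earlier), circles the first cycle (2 to 24 h). In CMS101C, CMO089C, CMI291C and CMP311C the square profile tops at hour 10 and the circle profile at hour 14; CMR315C tops at hour 12 and hour 10.

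Of the next genes by size, CMN011C had a peak-to-trough of 2.19 ± 0.35, CMH264C of 2.09 ± 0.40, CMQ241C of 1.95 ± 0.30, CMJ103C of 1.94 ± 0.46 and CMK062C of 1.86 ± 0.28. CML219C and CMA036C followed at 1.84 each, then CMR405C at 1.79, CMD113C at 1.78, CMR358C at 1.74, CMH135C at 1.61, CMR406C at 1.54, CMT288C at 1.499 and CMN066C at 1.49. CMJ103C had a wide gap between cycles that did not pass the test of the difference in rhythm (limma adjusted p = 0.0696). Fitted to each cycle alone, its peak-to-trough was 3.37 in the second cycle, against 0.758 in the first, where its highest value was -0.33.

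The genes were sorted by the hour of their first top. The 36 genes highest at 14 h had fitted peaks from 10.2 to 12.99 h, median 11.9 h, and 33 of them had their second top at 34 h. Their median centred log2 ratio was -0.49, 1.14, 1.19 and -1.19 at 10, 14, 34 and 46 h. The 11 genes highest at 10 h had fitted peaks from 9.15 to 12.2 h, median 10.2 h. Their medians at these times were 0.58, -0.14, 0.41 and -1.93, so their median was below the array median at 14 h and above it at 34 h. In the second cycle 5 of these 11 topped at 34 h and 5 at 36 h. These 2 groups were apart in the first cycle because they were sorted on it, and were close in time in the second. The remaining genes had first tops at 8 h (2 genes), 12 h (6) and 16 h (4), so the 2 groups are not separate kinds. Both were formed from the values shown, so their difference carries no test.

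Curves fitted to each cycle alone were larger in the second cycle on the ratio scale. Their median peak-to-trough was 1.68 there, from 0.676 in CMI203C to 5.08 in CMS101C, and 1.13 in the first cycle, from 0.557 in CMP045C to 3.74 in CMS101C. In 55 of the 59 genes (93.2%) the second curve was the larger one. The same held for 58.7% of all genes, for 60.3% of the 78 genes peaking just before this window and for 91.9% of the 37 peaking just after it. The lowest value was lower in the second cycle in 56 genes, with a median of -1.56 against -0.99. The highest value was higher there in 28 genes, with a median of 0.97 against 0.81, so the ratios of the cycles differed more in their lows than in their tops. Without 46 and 48 h and their matched times the second curve was larger in 50 genes. In Cy3 alone it was larger in 26 of the 59, and the median peak-to-trough was 1.88 there, against 1.84 in the first cycle. In Cy5 alone the medians were 0.539 in the second cycle, against 1.22 in the first. The larger second curve of most genes was thus seen in the ratio and not in Cy3 alone. A single dye is not corrected by the other dye of the same spot. Which dye the difference comes from was not tested.

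The peak within the cycle was earlier in the second cycle. The median fitted peak was 11.1 h into the second cycle and 12.2 h into the first. The shift, second minus first, had a median of -1.09 h and ran from -4.51 h in CMN212C to 4.19 h in CMJ068C. An earlier second peak was found in 39 of the 59 genes, by over 2 h in 21, and the peaks were within 4 h of each other in 55. The median shift was 0.884 h over all genes, 1.63 h in the 78 genes peaking just before the window and -3.297 h in the 37 peaking just after it. In Cy3 alone the second peak was earlier in 47 genes, at a median of 11.98 h against 14.1 h in the first cycle, so the earlier second peak is present in the sample dye.

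**Figure D4:**
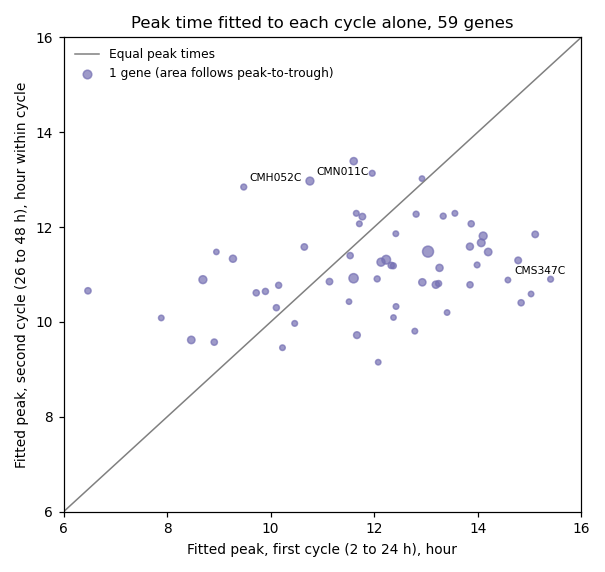
Fitted peak of each of the 59 genes in the second cycle (vertical axis, hour within the cycle) against the first cycle (horizontal axis, hour), from curves fitted to each cycle alone; symbol area follows peak-to-trough and the line marks equal hours. The 39 genes below the line peaked earlier in the second cycle, and the 3 genes named are those whose rhythm differed between cycles in the test.

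Differences between times 24 h apart hold nothing of the 24 h curve that chose the genes, so the level of the cycles could be tested. The test was limma's moderated test of the mean of 12 matched differences, each a time of the second cycle minus the time 24 h before, with Benjamini-Hochberg adjustment over all 4576 genes. A gene was called at an adjusted p under 0.05 and a difference of at least 1.5-fold. Lower in the second cycle was called for 1 of the 59 genes, CMH052C, beside 90 genes or 1.97% of all genes. Higher was called for 0 of the 59, beside 3 genes or 0.0656% of all. At an unadjusted p under 0.05, 6 of the 59 were lower (10.2%) and 0 higher in limma, against 496 genes lower (10.8%) and 229 higher among all. The share of the set that was lower is near the background.

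The mean difference of the 59 genes had a median of -0.05 and ran from -0.81 in CMO111C to 0.63 in CMJ103C, against a median of 0.01 over all genes, on the log2 scale. It was below 0 in 36 of the 59 (61.0%) and in 2160 of all genes (47.2%). Values of one culture at neighbouring times are not independent, so these p-values may be too small. The rule's minimum R2 also limits how far the cycles of a kept gene can differ.

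CMH052C, the gene called, had an early first top. Its centred log2 ratio was -1.80 at the lowest (48 h), -0.32 at the median and 0.34 at the highest (36 h) in the second cycle, against -0.75 (22 h), 0.18 and 0.84 (8 h) in the first cycle. The ranges overlap, and the later value was lower in 10 of 12 pairs. The mean difference was -0.60 ± 0.14 (standard error, 12 pairs; limma adjusted p = 0.0219). The call was lost when any of 6 pairs was left out (those of 2, 4, 6, 8, 22 and 24 h), without the arrays of 2, 4, 6 and 26 h, without 46 and 48 h, and under loess, equal spread between arrays and the authors' log2 values. The difference ran from -0.82 to -0.45 and the adjusted p from 0.0111 to 0.15 over the 35 alternatives. Without the pairs of 2, 4, 6, 22 or 24 h, and with the authors' values, the adjusted p stayed under 0.05 and only the 1.5-fold limit was missed. CMP249C, chosen here after its values were seen, passed the adjusted p alone, at -0.45 ± 0.10 and limma adjusted p = 0.0198, and was lower in 12 of 12 pairs.

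The small mean differences covered larger ones of opposite sign at single hours. The median matched difference of the 59 genes was 0.55 for 32 minus 8 h and 1.01 for 34 minus 10 h, and 45 and 48 of the genes were higher in the later sample. It was -0.57 for 38 minus 14 h, with 17 genes higher. At the end of the cycle it was -0.35 for 44 minus 20 h, -0.48 for 46 minus 22 h and -0.66 for 48 minus 24 h, with 10, 9 and 4 genes higher. In Cy3 alone the median of the 59 genes was not lower in these later samples, with 0.84 at 44 h against 0.68 at 20 h, 0.32 at 46 h against 0.29 at 22 h, and 0.33 at 48 h against -0.01 at 24 h. In Cy5 it was 2.08 against 1.52, 1.62 against 1.28 and 1.42 against 0.72 for the same pairs, so the lower late ratios went with higher values in the mixture dye. For 26 minus 2 h, 28 minus 4 h, 30 minus 6 h, 36 minus 12 h, 40 minus 16 h and 42 minus 18 h it lay between -0.19 and 0.23. Over all genes the medians lay between -0.06 and 0. The median Cy5 intensity of the arrays also differed within pairs, from 763 at 34 h against 1333 at 10 h to 552 at 30 h against 12290 at 6 h, 656 at 28 h against 13150 at 4 h, and 4139 at 48 h against 581 at 24 h. Its part in the differences was not tested.

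**Figure D5:**
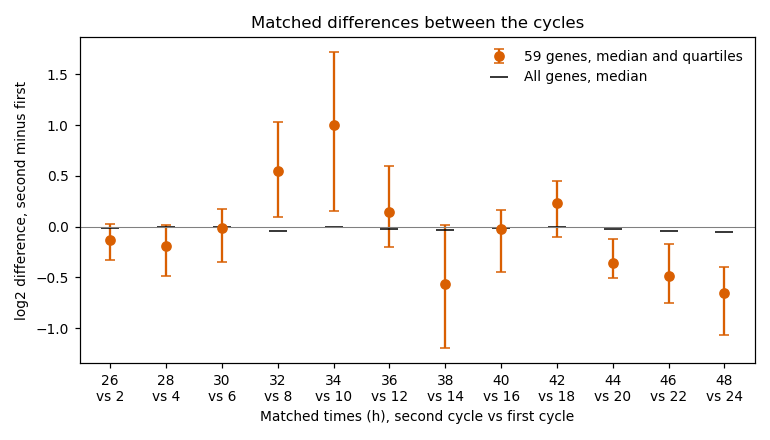
Difference in centred log2 ratio between times 24 h apart, the second cycle minus the first, for the 59 genes (median as point, quartiles as bar) and the median of all genes (dash). The 59 genes were higher at 32 and 34 h than at 8 and 10 h (medians 0.55 and 1.01), and lower at 38 h than at 14 h (-0.57) and at 44 to 48 h.

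To ask whether the daily curve itself differed between cycles, a 24 h cosine and sine was fitted to the 12 matched differences and tested by limma's moderated F. Of the 59 genes 3 passed an adjusted p of 0.05, CMN011C, CMS347C and CMH052C, beside 40 genes or 0.874% of all genes. At an unadjusted p under 0.05, 28 of the 59 passed (47.5%) and 634 of all genes (13.9%). Without the arrays of 2, 4, 6 and 26 h, the brightest in Cy5, 11 of the 59 passed the adjusted p, beside 147 of all genes, and with normexp 1 of the 59 did. The size of the difference, as the peak-to-trough of the curve through it, had a median of 1.11 in the 59 genes, from 0.388 to 2.85, and of 0.382 over all genes. The set was chosen for large curves and most genes on the array have small ones, so nothing particular to the set is read from these shares.

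CMN011C reached its second top late. Its centred log2 ratio was -2.57 at the lowest (46 h), 0.01 at the median and 1.27 at the highest (40 h) in the second cycle, against -2.37 (22 h), -0.52 and 0.19 (12 h) in the first cycle. The fitted curve had a peak-to-trough of 3.04 and a peak at 12.97 h in the second cycle, against 1.65 and 10.8 h in the first. The curve through the differences had a peak-to-trough of 1.89 (limma adjusted p = 0.0146). This call was lost with arrays set to equal spread, with normexp and without the arrays of 2, 4, 6 and 26 h, where the size was 2.10, 2.04 and 1.78, and the adjusted p ran from 0.007 to 0.162 over the alternatives. It was 1 of 3 genes whose second top came as late as 40 h.

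CMS347C changed the other way. Its centred log2 ratio was -1.22 at the lowest (46 h), 0.04 at the median and 0.71 at the highest (34 h) in the second cycle, against -0.56 (22 h), -0.20 and 0.67 (14 h) in the first cycle. The tops were nearly equal and the low was deeper in the second cycle. The fitted curve had a peak-to-trough of 1.48 and a peak at 10.9 h in the second cycle, against 0.878 and 14.6 h in the first, and the difference had a size of 1.22 (limma adjusted p = 0.0328). For CMH052C the curve had 1.63 and 12.8 h in the second cycle, against 1.14 and 9.48 h in the first, with a size of 1.26 (limma adjusted p = 0.0441). The call of CMS347C was lost in 16 of 35 alternatives and that of CMH052C in 17, and single pairs left out were enough for both. Leaving out either time of a pair drops the same pair, so these alternatives are not all separate checks. The call of CMS347C was also lost without 46 and 48 h, and with loess, normexp or the authors' log2 values. The second peak was thus later in CMN011C and CMH052C and earlier in CMS347C.

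A 12 h term added to the 24 h curve measures departures from a cosine, such as a sharper, flatter or lopsided profile. The term was tested at any phase, so the test does not tell these shapes apart. By limma's moderated F 0 of the 59 genes passed an adjusted p of 0.05, beside 0 genes or 0% of all, and the lowest adjusted p was 0.987. At an unadjusted p under 0.05, 17 of the 59 passed (28.8%) and 154 of all genes (3.37%). The 12 h curve had a median peak-to-trough of 0.459 in the 59 genes, with the highest, 1.71, in CMO111C, and of 0.134 over all genes. No gene was thus called as departing from a cosine by a 12 h term at 25 times.

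The 59 profiles resembled each other to unequal degrees. Pairwise correlations over 25 times had a median of 0.729 and ran from 0.0327 to 0.979, and the median over all pairs of genes was -0.014. The rule makes such likeness, and values at one time share an array, so this is a description. CMS116C was least like the median of the set, at 0.629. In gene order 1 pair of members lay side by side, CMR405C and CMR406C, with a correlation of 0.899. Both topped at 14 and 34 h, CMR405C with 1.55 at 14 h and 1.24 at 34 h, and CMR406C with 1.22 at 14 h and 1.45 at 34 h. Of 96 measured genes next to a member and not in the set, 3 (3.13%) met the size and R2 criteria at any peak time, namely CMI290C, CMJ067C and CMT289C, and 5.22% of all genes did. The members carried 19 of the 21 letter codes of the locus tags, at most 7 under 1 code, CMN, which has 235 genes on the array.

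The authors' deposited log2 values, scaled by other factors per array and centred per probe over the times, place the tops at the same hours. In series 3 the median of the 59 genes in the authors' deposited table was 1.02 at 14 h and 0.98 at 34 h. It was -0.51 at 46 h, where the median of all genes in that table was 0.65, so the 59 genes lay -1.16 from it. In those values the first top fell at 14 h in 37 genes and the second at 34 h in 41.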

How the data were processed

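RNA of 25 times was deposited as 75 records of 2-colour arrays in 3 series. The intensities of series 3 equal means of the other series at all 24 times that could be compared, so they are not further readings. Per the labels' protocols, amino-allyl RNA was amplified from total RNA by oligo(dT) priming. Cy3 marked each time and Cy5 the mixture on every array, so any dye bias stays in the ratios. Per the file headers, the deposited data are raw intensity in Cy5 and Cy3, a Cy3 intensity scaled by the authors, their ratio of scaled Cy3 to Cy5 and a log2 value. The sources used here name no scanner, background step or scaling method. The log2 column of series 3 at 48 h repeats that of 46 h, and the deposited series table replaced it. Per-sample columns that could not be mapped numbered 0.

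Log2(Cy3/Cy5) minus the array median was computed from raw intensities of series 3 for 4586 probes, and probes of 1 gene were averaged. Of the 10 genes with 2 probes, 0 are among the 59. No filter on dim probes was used. Tests used limma 3.58.1 in R 4.3.3 on all 4576 genes with 1 value per time, and were tested on simulated data. The simulated noise was independent between times and genes, so it could not check the effect of dependence between neighbouring times. The p-values of the tests measure scatter over times, not over cultures. The members and lists were chosen with earlier results of these data known. Named are the 20 genes of largest peak-to-trough, called genes, those at the limits of the rule and neighbouring members. Lists by annotation words and promoter motifs were planned and not used here, as the reference gives tags alone. Series numbers were taken to mark readings of the same samples and not to pair cultures. Alternatives were loess, equal spread between arrays, normexp with an offset of 50, the authors' log2 values, arrays, times or series left out, a filter on dim probes, the first probe, and all arrays as separate values. Cy3 alone and the removal of 46 and 48 h were added after seeing the data.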

Additional observations from a re-analysis of the deposited data

Results flagged for a closer look

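The 24 h curve differed between the cycles in 3 of the 59 genes by the limma F-test of that difference. The peak-to-trough of the curve through the second minus the first cycle was 1.887 in CMN011C (adjusted p = 0.0146), whose second top came at 40 h against 12 h in the first cycle. It was 1.261 in CMH052C (adjusted p = 0.0441), whose top came at 36 h against 8 h. It was 1.22 in CMS347C (adjusted p = 0.0328), whose low was -1.22 in the second cycle, against -0.56 before. Each rests on 12 matched differences of 1 culture record. Of 35 alternatives, 3 lost the call of CMN011C, 17 that of CMH052C and 16 that of CMS347C. The call of CMS347C was lost without 46 and 48 h, and with loess, normexp or the authors' log2 values.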

How the results depend on the processing

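Lower in the second cycle was called for 1 of the 59 genes, beside 90 of all genes. It was called for 2 by adjusted p alone (193 of all), 2 with normexp (147), and 0 with loess (41), equal spread between arrays (96), the authors' log2 values (65), without the arrays of 2, 4, 6 and 26 h (92), or without 46 and 48 h (61). Leaving out each time gave 0 to 3 such calls, 3 without 12 or 36 h. A rhythm that differed between cycles was called for 3 genes, for 1 with normexp, for 11 without the arrays of 2, 4, 6 and 26 h, and for 1 to 4 with a time or series left out. The cause was not tested. With all arrays as separate values, which counts 1 sample 3 times, the calls were 3 lower (100 of all genes), 1 higher (15), 59 for rhythm (4468) and 59 for the 12 h term (4368), so nearly all genes passed both rhythm tests. With the series number as replicate block they were also 3, 1, 59 and 59, and the series number was not taken to pair cultures.

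The rule was met by 37 of the 59 genes with equal spread between arrays, and by 30 with the authors' log2 values, under which 19 peaked at 13 h or later. It was met by 34 without 46 and 48 h and by 15 with Cy3 alone, both chosen after seeing the data. Single times left out kept 41 (without 34 h) to 59 genes. A larger curve in the second cycle, found in 55 genes, was found in 26 with Cy3 alone, in 50 without 46 and 48 h and in 49 without the arrays of 2, 4, 6 and 26 h. An earlier second peak was found in 39 to 47 genes under these settings. The level difference of CMH052C kept its sign in 35 alternatives. A rhythm difference is given as a size without a sign, so a reversal of the rhythm calls could not be seen. The peak-to-trough of the 20 largest genes stayed within 1 standard error in 697 of 720 values, and 15 of the 23 that did not came with normexp. Many of the 720 had little room to move. The dim-probe filter and the first probe left these genes unchanged, and most settings left out 1 time alone. Over all genes, 40 differed in rhythm, against 147 without the arrays of 2, 4, 6 and 26 h, 93 with equal spread, 81 with the authors' log2 values and 57 with loess.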
